A study of Oryzias latipes with 10 samples.

Results

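Genes for glucose and glycogen handling were examined in the liver of Oryzias latipes, the medaka, a freshwater laboratory fish. The set was chosen by gene symbol, with earlier results of these data known. It comprised gck, g6pc, pygl, gapdh, pck1, pck2, fbp1, gys2, pklr and slc2a2. Of these 10 symbols, 7 matched an entry among the 25795 genes of the deposited table, while pck1, fbp1 and pklr matched none under their symbols and were not analysed here. The libraries came from 5 wild-type fish samples (WT1 to WT5) and 5 phod1 knockout samples (KO1 to KO5; the labels also write pd1). All fish were kept under long-day conditions and sampled at noon. Neither sex, age, strain, the number of fish per library nor the mutant allele was given in the labels, and no entry of the gene name table is called phod1 or pd1, so the knockout was not checked at its own transcript. Nothing in the labels says that the libraries came from separate animals, so the p-values reflect no more than the spread among these libraries, which may be technical.

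The liver takes up glucose after feeding, stores it as glycogen and returns it to the blood between meals. Glucokinase traps glucose in the hepatocyte as glucose phosphate and glucose-6-phosphatase sets it free again, so these enzymes work against each other at the cell's entrance and exit. Glycogen synthase and glycogen phosphorylase form a similar opposing pair at the glycogen store, and both are controlled by phosphorylation as well as by the amount of their messenger RNA.

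Levels are given in RPM, reads per 1000000 reads, as deposited. Totals, recovered from the value of 1 read, ranged from 5422342 to 9803543 per WT library and from 4542721 to 8371495 in KO1 to KO4. For KO5 the same calculation gave 10112313, which is less sure because 1 read there is worth 0.0989 RPM, close to a round 0.1. The members were covered by 25 to 26053 reads in each of the 9 libraries used in the count tests. Reads came from the 3' ends of transcripts and were not divided by gene length. Levels are compared between libraries, and levels of different genes are not read as amounts of transcript relative to each other. A fold change is the KO mean less the WT mean of log2(RPM + 1), with the SE of a limma fit across 14984 genes that had at least 1 RPM in at least 5 libraries, and a gene was called at an adjusted p under 0.05. All 7 members passed this filter. The hepatocyte markers fgb, fga, fgg, rbp4 and hpx were the 5 of 14 listed symbols that were found. They summed to 7682 to 18299 RPM in WT and 18752 to 24848 RPM in KO. Of them 1 passed, hpx, for the heme carrier hemopexin (1.30 ± 0.24, limma adjusted p = 0.00454), where 1.17% of all tested genes were called higher. fgb, fga, fgg and rbp4 did not pass, at 0.92 ± 0.25, 0.86 ± 0.27, 0.76 ± 0.22 and 0.03 ± 0.20. Transcripts of the egg proteins vit-6, ol-vit1 and 1-sf, which the liver makes under estrogen, took 2.77% to 14.0% of reads in WT and 0.428% to 6.95% in KO. WT3 was the lowest WT library by that share and KO2, at 6.95%, the highest KO library, so both lay towards the other genotype.

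Of the 7 members, 4 rose in KO (gck, g6pc, pygl and gapdh), none fell, and pck2, gys2 and slc2a2 did not pass. Among all 14984 tested genes, 1.17% were called higher and 1.68% lower. In gck, g6pc and pygl every KO library lay above every WT library, as in 1.03% of all tested genes. The median log2 fold change of the 7 members was 0.94, against -0.19 for all tested genes. The members were chosen with earlier results of these data known, so their counts and median do not test the pathway. With TMM scaling the median of all genes moved to -0.01, and the fold changes of gck, g6pc, pygl and gapdh became 2.17, 2.30, 1.98 and 1.16.

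**Figure D1:**
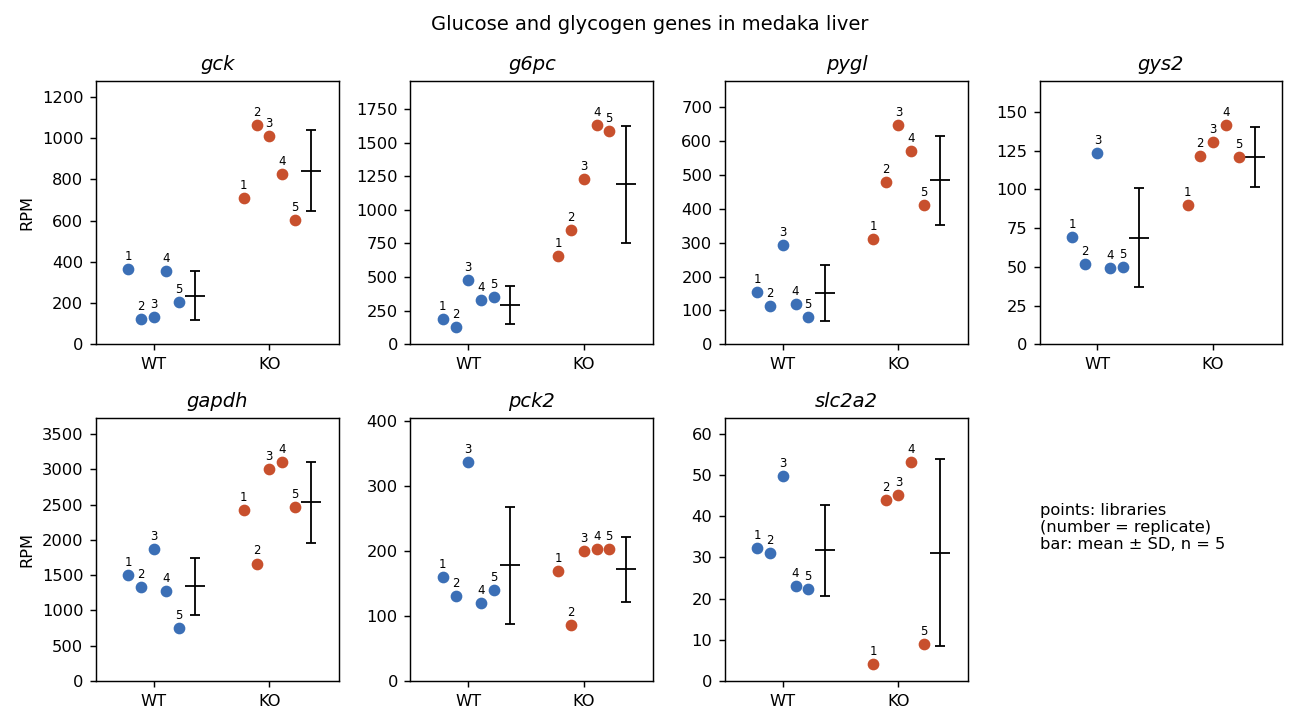
RPM of the 7 members in each library (vertical axis, linear from 0; numbers beside points are replicates) with mean ± SD, n = 5 per genotype. In gck, g6pc and pygl all KO points lie above all WT points, and WT3 is the highest WT point in every panel but gck.

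At the entry of glucose, gck encodes glucokinase, the low-affinity hexokinase of the liver. Its level was 365, 121, 131, 353 and 206 RPM in WT1 to WT5. The KO libraries, KO1 to KO5, had 709, 1065, 1010, 825 and 601 RPM. The lowest KO library thus stood well above the highest WT library, and the WT libraries themselves split into a higher pair, WT1 and WT4, and 3 lower ones. The means were 235 ± 118 and 842 ± 196 RPM (SD, n = 5 per group), a ratio of 3.58. The log2 fold change was 1.96 ± 0.28 (SE), with a limma adjusted p of 0.00111. The call was kept in each of the 22 alternative fits, with fold changes of 1.69 to 2.17.

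The transporter gene slc2a2 encodes GLUT2, which carries glucose across the hepatocyte membrane in both directions. Its level was 32.3, 31.0, 49.8, 23.1 and 22.2 RPM in WT1 to WT5. In KO1 to KO5 it was 4.16, 44.0, 45.2, 53.3 and 9.00 RPM. The KO libraries fell into 2 sets, with KO1 and KO5 below all WT libraries and the other 3 within or above the WT range. The log2 fold change was -0.48 ± 0.51 (limma adjusted p = 0.686), and it turned positive without KO1, at 0.06, and in the count tests, which do not use KO5. The same 2 libraries were also the lowest KO libraries of gck and pygl, although there they lay above every WT library.

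At the exit, g6pc encodes the catalytic subunit of glucose-6-phosphatase, the last step of both glycogen breakdown and glucose synthesis. Its level was 185, 125, 478, 330 and 350 RPM in WT1 to WT5. The KO1 to KO5 levels were 655, 848, 1232, 1632 and 1583 RPM. The groups did not overlap, and the highest WT library was WT3. The means were 293 ± 141 and 1190 ± 434 RPM (SD, n = 5 per group), a ratio of 4.06, and the log2 fold change was 2.08 ± 0.32 (limma adjusted p = 0.00138). The call was kept in all 22 alternative fits. slc37a4, the transporter that brings glucose phosphate to this phosphatase inside the endoplasmic reticulum, had WT and KO means of 45.7 ± 12.2 and 40.7 ± 5.88 RPM and did not pass (limma adjusted p = 0.788). g6pc3, the broadly expressed relative of g6pc, averaged 6.66 ± 1.91 and 4.56 ± 2.98 RPM (limma adjusted p = 0.463). Both were named after their values were seen.

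The ratio of gck to g6pc within each library showed whether the opposing transcripts shifted against each other. It was 1.98, 0.968, 0.274, 1.07 and 0.588 in WT1 to WT5. Among KO1 to KO5 it was 1.08, 1.25, 0.820, 0.506 and 0.379. The KO values lay inside the WT range. On the log2 scale the mean was -0.32 ± 1.06 in WT and -0.45 ± 0.73 in KO (SD, n = 5 per group). The difference was -0.13, with a 95% interval of -1.38 to 1.22 from the exact permutation test (two-sided p = 0.825; adjusted over 2 ratios, 0.825). A change of the ratio by more than 2-fold in either direction therefore lies within the interval. The sign depended on single libraries, since the difference was 0.20 without WT1, 0.11 without KO5 and 0.01 without KO4. It was -0.51 without WT3.

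**Figure D2:**
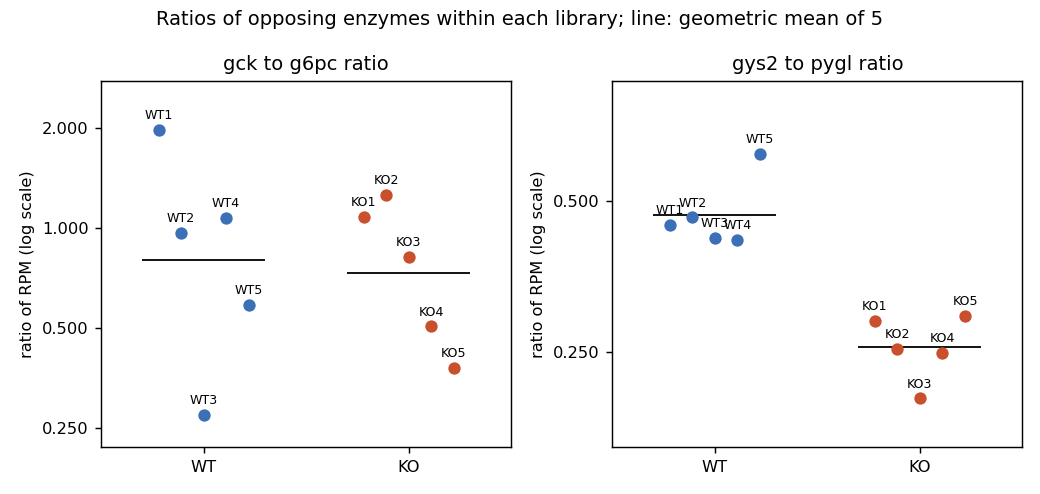
Ratio of RPM within each library (vertical axis, log scale) for gck to g6pc on the left and gys2 to pygl on the right; lines are geometric means of 5 libraries. On the left the genotypes overlap over a range of 0.274 to 1.98, and on the right the WT points, 0.417 to 0.619, all lie above the KO points, 0.202 to 0.295.

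At the glycogen store, pygl encodes liver glycogen phosphorylase, which releases glucose units from the chain ends. Its level was 155, 112, 294, 118 and 80.9 RPM in WT1 to WT5. In KO1 to KO5 it was 311, 480, 649, 570 and 411 RPM. KO1 was only slightly above WT3, and the other 4 WT libraries were lower by a wide margin. The means were 152 ± 83.5 and 484 ± 132 RPM (SD, n = 5 per group), a ratio of 3.19, and the log2 fold change was 1.77 ± 0.28 (limma adjusted p = 0.00161). Without WT3 it was 2.04 (limma adjusted p = 1.26e-05), and the call was kept in all 22 alternative fits.

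The opposing gene gys2 encodes liver glycogen synthase, which lengthens the chains. Its level was 69.3, 51.8, 124, 49.1 and 50.1 RPM in WT1 to WT5. In KO1 to KO5 it was 89.8, 122, 131, 142 and 121 RPM. WT3 lay among the KO libraries, and the other 4 WT libraries were below all KO libraries. The log2 fold change was 0.89 ± 0.24, with a limma adjusted p of 0.0503, just outside the threshold. It passed without WT3, at 1.12 (limma adjusted p = 0.00103), and without KO1, at 0.99 (limma adjusted p = 0.0454). It also passed with TMM scaling, at 1.10 (limma adjusted p = 0.0127). Counted over all 22 alternatives, gys2 passed in 8 and not in the other 14, edgeR among them. Of the 10 fits without 1 library it passed in 2, with limma adjusted p-values up to 0.149.

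The ratio of gys2 to pygl was lower in KO. It was 0.448, 0.463, 0.421, 0.417 and 0.619 in WT1 to WT5, and KO1 to KO5 had 0.288, 0.253, 0.202, 0.248 and 0.295. WT3, which was high in both genes, had a ratio like those of WT1, WT2 and WT4, and all WT libraries were above all KO libraries. The mean log2 ratio was -1.08 ± 0.23 in WT and -1.96 ± 0.22 in KO (SD, n = 5 per group). The difference was -0.88, with a 95% interval of -1.23 to -0.58, and the exact permutation test gave a two-sided p of 0.00794, the smallest that 5 against 5 libraries allow (adjusted over 2 ratios, 0.0159). Leaving out 1 library at a time gave differences of -0.93 to -0.78. Both ratios were chosen with the rise of gck, g6pc and pygl already known.

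In the shared middle of glycolysis and glucose synthesis, gapdh encodes glyceraldehyde-3-phosphate dehydrogenase. Its level was 1508, 1327, 1865, 1272 and 751 RPM in WT1 to WT5. It reached 2419, 1666, 3011, 3112 and 2473 RPM in KO1 to KO5. KO2 fell below WT3, so the groups overlapped in that pair, while the other 4 KO libraries lay above all WT libraries. The means were 1345 ± 405 and 2536 ± 577 RPM (SD, n = 5 per group), a ratio of 1.89, and the log2 fold change was 0.94 ± 0.23 (limma adjusted p = 0.0306). The call was kept when WT3 or KO2 was left out (limma adjusted p = 0.00431 and 0.0145). It was lost when WT1, WT2, WT4, WT5, KO1, KO3, KO4 or KO5 was left out, with limma adjusted p-values up to 0.0941. The quasi-likelihood test of edgeR gave an adjusted p of 0.0559, and limma with no filter on low genes 0.126.

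At the start of glucose synthesis, pck2 encodes the mitochondrial form of phosphoenolpyruvate carboxykinase. Its level was 160, 131, 337, 120 and 140 RPM in WT1 to WT5. In KO1 to KO5 it was 168, 85.9, 199, 203 and 202 RPM. WT3 was the highest of all 10 libraries and KO2 the lowest. The log2 fold change was 0.00 ± 0.28 (limma adjusted p = 0.998). Without WT3 and KO2 together it was 0.49 (limma adjusted p = 0.0927).

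The libraries WT3 and KO2 stood apart in egg protein reads, and the members did not move with that share alike. The egg protein share was 10.4%, 13.3%, 2.77%, 12.4% and 14.0% from WT1 to WT5, and from KO1 to KO5 it was 0.593%, 6.95%, 0.571%, 0.428% and 0.479%. WT3 had the highest WT level of g6pc, pygl, gys2, gapdh, pck2 and slc2a2, but one of the lowest levels of gck. KO2 had the highest KO level of gck and the lowest of gapdh and pck2, but stood in the middle of the KO group for pygl and gys2. Without both libraries the log2 fold changes were 1.69 for gck, 2.40 for g6pc, 2.03 for pygl, 1.11 for gys2 and 1.22 for gapdh, each with a limma adjusted p under 0.05 (the highest was 0.00159, for gys2). The rise of g6pc, pygl and gapdh was at least as large without these libraries, and that of gck somewhat smaller. These directions follow from where WT3 and KO2 lay within their groups, so they do not test how firm the rises are. gys2 had not passed with all libraries. Among the remaining 8 libraries the genotypes did not overlap in egg protein share, so genotype and that share cannot be told apart there. The hepatocyte marker sum also did not overlap between the genotypes. Taken singly, hpx was higher in every KO library than in any WT library, as in 1.03% of all tested genes. fgb, fga, fgg and rbp4 overlapped. The part of the hepatocyte marker sum was not tested. In whole liver, fewer cells of a type and less RNA per cell cannot be told apart.

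**Figure D3:**
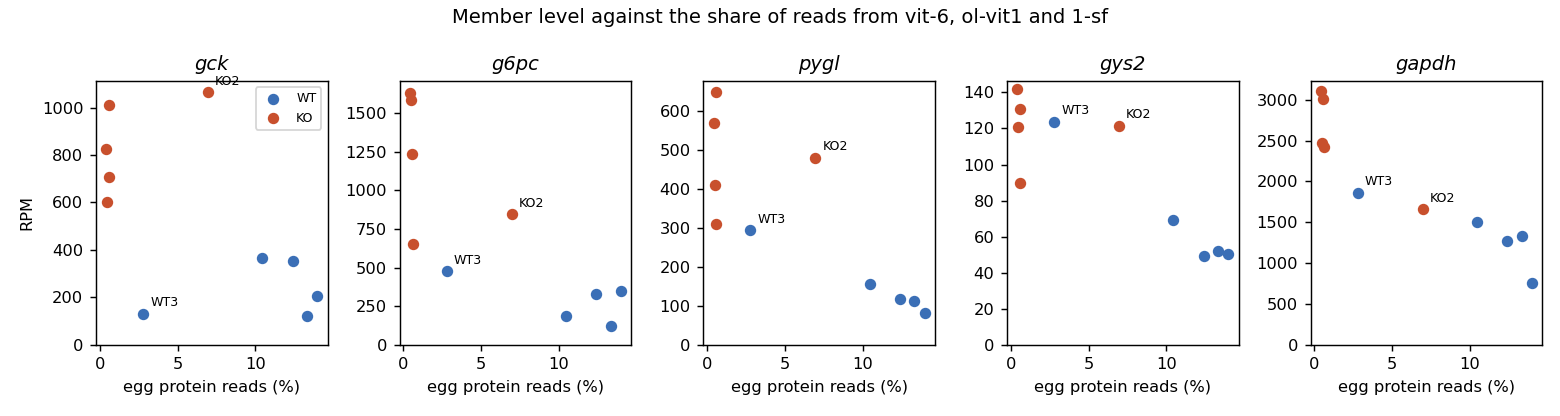
RPM of 5 members (vertical axes, linear from 0) against the percentage of reads from vit-6, ol-vit1 and 1-sf (horizontal axis) in each library, with WT3 and KO2 named. WT3, at 2.77% egg protein reads, is the highest WT library for g6pc, pygl, gys2 and gapdh and low for gck.

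The other genes of these pathways were taken from 7 lists chosen by symbol. They named 123 symbols, of which 73 were found, as 74 gene entries because socs3 had 2, and 64 entries were tested. Of these 64, 5 rose, 1 fell and 58 did not pass, and their median log2 fold change was 0.14, against -0.19 for all tested genes. Of all tested genes 1.17% were called higher and 1.68% lower. The lists were chosen with earlier results of these data known. The calls fell in the glycogen list and in the list of sugar entry.

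Of 14 tested glycogen genes besides the members, 4 rose, none fell and 10 did not pass, with a median log2 fold change of 0.46. Of all tested genes 1.17% were called higher. Among the 4 were all 3 tested genes for glycogen-targeting subunits of protein phosphatase 1, which bring the phosphatase to glycogen and so favour glycogen synthase over phosphorylase. The level of ppp1r3g was 72.2, 51.6, 200.5, 83.2 and 46.0 RPM in WT1 to WT5, and KO1 to KO5 had 207, 204, 244, 255 and 336 RPM. WT3 nearly reached the lowest KO libraries, but every KO library lay above every WT library, as in 1.03% of all tested genes. Its log2 fold change was 1.64 ± 0.30 (limma adjusted p = 0.00454), and the call was kept in all 22 alternative fits. The level of ppp1r3b was 43.9, 66.2, 79.1, 48.9 and 74.8 RPM in WT1 to WT5, and KO1 to KO5 had 144, 83.7, 142, 145 and 96.9 RPM, again with no overlap. Its log2 fold change was 0.96 ± 0.22 (limma adjusted p = 0.0230), and the call was lost without WT1, WT4, KO1, KO3 or KO4, with limma adjusted p-values up to 0.0792. With the replicate number as a block the limma adjusted p was 0.0515.

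The level of ppp1r3c was 19.2, 54.8, 102, 62.1 and 65.7 RPM in WT1 to WT5, and KO1 to KO5 had 103, 140, 168, 175 and 94.7 RPM. Here KO5 fell below WT3. The log2 fold change was 1.28 ± 0.32 (limma adjusted p = 0.0336), and the call was lost in 7 of the 10 fits without 1 library, those without WT1, WT2, WT4, WT5, KO2, KO3 or KO4, with limma adjusted p-values up to 0.0983. It was not reached with robust variances (limma adjusted p = 0.0936) or edgeR (adjusted p = 0.0522). The fourth gene was pgm1, for the phosphoglucomutase that links glycogen to glucose phosphate. It stood at 193, 116, 314, 163 and 124 RPM in WT1 to WT5, and KO1 to KO5 had 301, 323, 482, 519 and 432 RPM. Only KO1 was below WT3, and the other KO libraries were above all WT libraries. The log2 fold change was 1.24 ± 0.24 (limma adjusted p = 0.00829), kept in all 22 alternative fits.

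**Figure D4:**
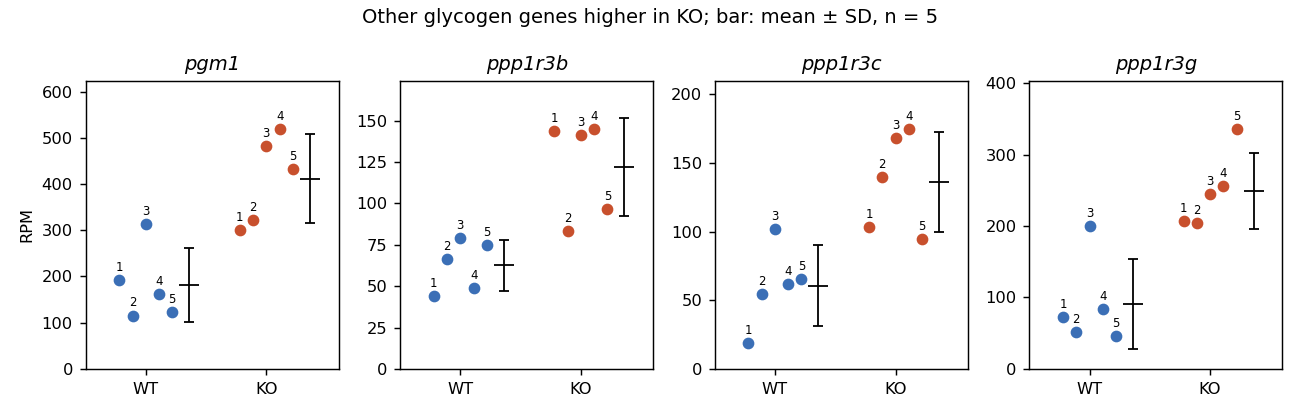
RPM of pgm1, ppp1r3b, ppp1r3c and ppp1r3g in each library (vertical axis, linear from 0; numbers are replicates) with mean ± SD, n = 5 per genotype. WT3 is the highest WT point in each panel and overlaps the KO points in pgm1 and ppp1r3c.

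The uncalled glycogen genes with the highest levels were gbe1, the branching enzyme, stbd1, a glycogen-binding protein, and pgm2. gbe1 had WT and KO means of 195 ± 32.1 and 285 ± 49.8 RPM (0.55 ± 0.18, limma adjusted p = 0.119) and passed in 4 of 22 alternatives, among them TMM (0.0337) and DESeq2. The log2 fold changes of stbd1 and pgm2 were 0.38 ± 0.22 and -0.05 ± 0.26.

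With limma none of 8 tested glycolysis genes and none of 8 tested genes of glucose synthesis passed, with median log2 fold changes of 0.29 and 0.42. At an unadjusted limma p under 0.05 there were 4 and 3. The share of all tested genes under that threshold was not counted, so nothing is read from these 2 counts. In this fit an unadjusted limma p of 0.0486 went with an adjusted p of 0.302. edgeR called 1 and 0, and DESeq2 called 2 and 1, all of them higher. Of all 14984 tested genes, edgeR called 131 higher and 47 lower, and DESeq2 called 310 higher and 179 lower. tpi1, eno1 and pgk1, which act beside gapdh in the shared part of the pathway, had log2 fold changes of 0.26 ± 0.19, 0.32 ± 0.16 and 0.62 ± 0.19. pgk1, the enzyme directly after gapdh, had WT and KO means of 102 ± 24.1 and 154 ± 22.2 RPM (limma adjusted p = 0.0947). It passed in 5 of 22 alternatives, TMM (0.0404), median-of-ratios scaling and DESeq2 among them. pfkl, for the liver phosphofructokinase, is named after its values were seen because all KO libraries lay above all WT libraries. Of all tested genes 1.03% did so. pfkl averaged 19.1 ± 5.08 and 33.2 ± 3.53 RPM, and its log2 fold change of 0.79 ± 0.22 did not pass (limma adjusted p = 0.0601). It passed in 7 of 22 alternatives, among them TMM (0.0138), edgeR and DESeq2. aldoc, also named after its values were seen, went the other way, from 124 ± 7.65 to 86.2 ± 25.5 RPM. Its log2 fold change of -0.57 ± 0.19 did not pass (limma adjusted p = 0.135), but it was called lower without KO2 and without both WT3 and KO2. Of the 8 tested glycolysis genes, 5 had a positive log2 fold change, as did 4894 of all 14984 tested genes. Among genes of glucose synthesis, the malate dehydrogenase genes mdh1 and mdh2 had log2 fold changes of 0.57 ± 0.19 and -0.08 ± 0.16. The mitochondrial dicarboxylate carrier gene slc25a10 had WT and KO means of 78.5 ± 24.2 and 142 ± 42.1 RPM (0.84 ± 0.24, limma adjusted p = 0.0708). It passed in 8 of 22 alternatives, among them TMM (0.0366), the replicate block (0.0479) and DESeq2.

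**Figure D5:**
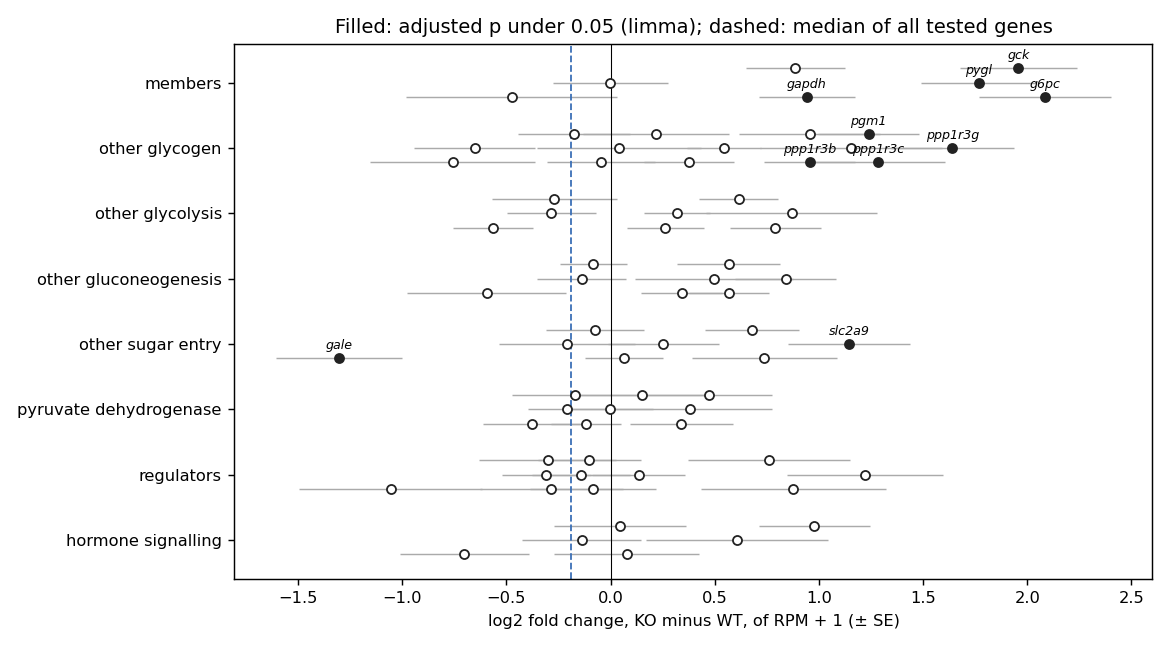
Log2 fold change (KO minus WT, horizontal axis, ± SE) of each tested member and of each tested gene of the 7 pathway lists; filled points passed limma at an adjusted p under 0.05, and the dashed line is the median of all tested genes, -0.19. Filled points lie in the members, the other glycogen genes and the sugar entry list.

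In the list of sugar entry and conversion, 1 of 8 tested genes rose, 1 fell and 6 did not pass. slc2a9, a relative of slc2a2 that in mammals carries urate, rose from 54.8 ± 30.5 to 110 ± 21.1 RPM (1.14 ± 0.29, limma adjusted p = 0.0394). Of the 10 fits without 1 library, 8 lost the call (those without WT1, WT4, WT5 or any one KO library), with limma adjusted p-values up to 0.114. Neither edgeR (adjusted p = 0.134) nor the replicate block (limma adjusted p = 0.0756) gave the call. gale, whose enzyme interconverts the UDP forms of glucose and galactose, fell from 29.7 ± 10.7 to 11.1 ± 3.21 RPM (-1.30 ± 0.30, limma adjusted p = 0.0241). Among all tested genes, 1.68% were called lower. WT3 had 13.1 RPM of gale, inside the KO range of 5.90 to 14.5 RPM. The call of gale was lost without WT1, WT2, WT4, WT5 or KO3 (limma adjusted p up to 0.0849), with TMM (0.0626) and with edgeR (adjusted p = 0.0918). The sorbitol dehydrogenase gene sord, galk1 and tkfc did not pass, at 0.68 ± 0.23, 0.07 ± 0.19 and -0.08 ± 0.24, although sord passed in 4 of 22 alternatives, TMM (0.0430) among them.

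Beyond the sugar pathway itself, none of 9 tested genes of pyruvate entry into mitochondria passed with limma, edgeR or DESeq2, at an unadjusted p under 0.05 there were 0, 2 and 1, and mpc1, mpc2 and dld had log2 fold changes of -0.21 ± 0.19, -0.12 ± 0.17 and -0.01 ± 0.21. None of 11 tested regulators passed with limma or edgeR, and 2 had an unadjusted limma p under 0.05. The share of all tested genes at an unadjusted p under 0.05 was not counted. Nothing is therefore read from this count or from those for pyruvate entry. cebpa and hnf4a, for liver transcription factors, had log2 fold changes of -0.31 ± 0.21 and 0.14 ± 0.22. klf15, a transcription factor gene that is induced by fasting in mammals, had WT and KO means of 16.8 ± 8.00 and 41.5 ± 20.7 RPM (1.22 ± 0.38, limma adjusted p = 0.0940). It passed in 6 of 22 alternatives, among them TMM (limma adjusted p = 0.0325), without WT3 (0.0278), without KO1 (0.0175) and DESeq2. gckr, the gene of the protein that holds glucokinase inactive in the nucleus of mammalian hepatocytes, was listed at 0 in all 10 libraries; it was named after its values were seen. gpi, for the glucose phosphate isomerase that every cell uses in glycolysis, was also listed at 0 in 5 of the 10 libraries, so no level is drawn from the 0 of gckr.

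None of 6 tested genes of hormone signalling passed with limma or edgeR, and 2 had an unadjusted limma p under 0.05. That count too stands without the share of all tested genes, and nothing is read from it. gcgr, the glucagon receptor gene, had WT and KO means of 13.7 ± 6.66 and 13.1 ± 3.09 RPM (0.04 ± 0.32, limma adjusted p = 0.964). pik3r1, for a regulatory subunit of the kinase downstream of the insulin receptor, averaged 50.4 ± 23.0 and 94.4 ± 23.1 RPM (0.98 ± 0.27, limma adjusted p = 0.0542). It passed in 8 of 22 alternatives, among them TMM (0.0228), the replicate block (0.0268) and DESeq2. akt1 had a log2 fold change of -0.70 ± 0.31.

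Likeness to the risen members within the genotypes was measured as Pearson's r of the deviations of log2(RPM + 1) from the genotype means over 10 libraries, as a description, with points that share the library and its total. The 3 genes most like each member were taken from 3607 other genes with a symbol and a mean of at least 10 RPM. Picked as the highest of so many over 10 libraries, these r are high by selection, and no shared control is read from them. For gck they were nek7 (r = 0.90), srek1 (0.89) and pdcd4 (0.89), whose log2 fold changes were -0.08 ± 0.34, -0.13 ± 0.22 and -0.63 ± 0.19 and did not pass. For g6pc they were gemin6 (r = 0.94), qdpr (0.94) and fam122b (0.91), with log2 fold changes of 0.24 ± 0.25, 0.57 ± 0.22 and 0.23 ± 0.25 that did not pass. For pygl they were mafb (r = 0.95), mgst1 (0.94) and wtip (0.93), and for gapdh aldh8a1 (0.96), gcgr (0.93) and scrib (0.92). WT3 was the highest WT library of wtip (24.2 RPM, next 13.3) and gcgr (24.0 RPM, next 13.1), and also of mgst1, aldh8a1 and scrib. Of the 12 genes most like the members, mafb alone was called, with WT and KO means of 18.8 ± 10.7 and 38.0 ± 7.84 RPM (1.09 ± 0.28, limma adjusted p = 0.0365). Its WT level was 37.8 RPM in WT3 and 12.3 to 16.1 RPM in the other 4, and the call was lost in 8 of the 10 fits without 1 library, those other than without WT3 or KO1 (limma adjusted p up to 0.105), and with edgeR (adjusted p = 0.0561). mafb was also the 1 called gene among the macrophage markers mafb, cd74 and spi1, the 3 of 9 listed symbols that were found. Their sum was 54.7 to 197 RPM in WT and 73.1 to 98.4 in KO. cd74 and spi1 went the other way, with log2 fold changes of -0.73 ± 0.35 and -0.20 ± 0.51, and did not pass. The part of macrophages in the level of mafb was not tested.

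Markers of other tissues that could be caught with the liver were low or overlapped between the genotypes. Of the exocrine pancreas list 2 of 17 symbols were found, with sums of 12.2 to 209 RPM in WT and 3.52 to 71.9 in KO, nearly all from cpb1. Of the islet list 7 of 10 were found, with sums of 103 to 151 and 93.1 to 172 RPM, and the muscle list, 3 of 8 found, summed to at most 4.84 RPM. Erythrocyte (1 found, 1 tested), endothelial (6 and 5), biliary (4 and 3), stellate (4 and 4) and adipocyte (1 and 1) lists held no called gene. With 1 tested gene each, the erythrocyte and adipocyte lists say little about their tissues. The 3 gonad genes found were under the filter, so none could be called, and they summed to at most 2.47 RPM.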

How the data were processed

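The authors deposited 1 table of RPM (reads per 1000000 reads) for 25795 genes in 10 liver libraries. Per the labels' protocols, libraries were made with Lasy-Seq from DNase-treated total RNA. BWA 0.7.17-r1188 and Salmon 1.4.0 appear in the submitters' processing notes without a stated role; the genome build is not given in the sources used here. All 25795 gene IDs matched a RefSeq gene table (ASM223467v1), used only for names. In WT1 to WT5 and KO1 to KO5, 100% of values were whole multiples of the value of 1 read (within 1e-06 reads), which gave the totals. KO5 was still left out of count tests because its step lies close to 0.1 RPM.

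Groups came from the titles. Members and lists were chosen with earlier results of these data known. limma 3.58.1 in R 4.3.3 was run with a variance trend on log2(RPM + 1), two-sided, with no covariates and Benjamini-Hochberg adjustment over 14984 genes. Ratios were tested by exact permutation over the 252 ways to choose 5 of 10 libraries, two-sided, adjusted over 2 ratios. Ratios with pck1, fbp1 or pklr and a search of promoters were planned and could not be run. Named were all members, the called genes of each list, up to 3 uncalled genes per pathway list by level and the 3 genes most like each risen member; any further gene is marked where it appears. Marker lists are given by sums. 1 regulator gene of the lists is not reported here. Symbols matched with fish suffixes a, b or c, leaving out insc and mdh1b, which are other genes. Alternatives were other pseudocounts, filters and scalings, robust variances, the replicate block, leaving out libraries, edgeR 4.0.16 and DESeq2 1.42.0. The limma step was tested on simulated data. Pairs of libraries of a group differed by 14.6 to 140.1 times their degrees of freedom in a chi-square over genes, so none was counted as a duplicate. Python 3.11.15 and scipy 1.17.1 were used for the rest.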

Additional observations from a re-analysis of the deposited data

Results flagged for a closer look

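In 110 groups of 5 values, 12 held 1 library far from the other 4, where chance gives about 1 in 20 for independent, normally distributed values. The groups share the same 10 libraries and are mostly RPM without a log, so that rate may not hold here. Of the members, pck2 had 337 RPM in WT3 against at most 160 RPM in the other WT libraries, and gys2 had 124 RPM in WT3 against at most 69.3. The log2 ratio of gys2 to pygl was -0.68 in WT5 and at most -1.10 in the other WT libraries. Of the other glycogen and sugar genes, ppp1r3g had 200.5 RPM in WT3 (next 83.2) and sord 212 RPM (next 111). mafb had 37.8 RPM in WT3 (next 16.1). The egg protein genes vit-6 and ol-vit1 were low in WT3, at 3643 and 12020 RPM, where the next WT libraries had 18817 and 45018 RPM. In KO2, vit-6, ol-vit1, 1-sf and esr1 were high, at 8323, 34685, 26471 and 94.2 RPM, where the next KO libraries had 490 RPM, 3690 RPM, 2571 RPM and 22.1 RPM. All but the ratio concern WT3 or KO2.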

How the results depend on the processing

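The calls of gck, g6pc, pygl, pgm1 and ppp1r3g were kept in all 22 alternatives. The number of members called higher was 3 to 5 throughout and the number called lower 0. Calls over all genes, higher and lower, moved more. They were 73 and 103 with no filter, 313 and 132 with TMM, 296 and 143 with median-of-ratios scaling, 424 and 621 without WT3 and KO2, 310 and 179 with DESeq2 and 131 and 47 with edgeR. Leaving out 1 library gave 94 to 365 higher and 104 to 479 lower. Both counts were highest without WT3 and fell by over 1.5 times without WT1, WT2, WT4, WT5, KO4 or KO5, the lower count also without KO1 or KO3. With no filter, which tests more genes, gapdh (limma adjusted p = 0.126), ppp1r3b (0.0652), ppp1r3c (0.127), slc2a9 (0.131), gale (0.0780), mafb (0.0994), hpx (0.0679) and ol-vit1 (0.0761) were no longer called. gys2 was called without WT3, without KO1, without both WT3 and KO2, with TMM, median-of-ratios scaling, robust variances or DESeq2, and without the 20 most abundant genes.

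The ratio of gck to g6pc differed by -0.51 to 0.20 when 1 library was left out. The ratio of gys2 to pygl kept its difference, -0.88 with the replicate block and -0.92 without WT3 and KO2, but these designs cannot go below adjusted p-values of 0.125 and 0.0571. The labels share replicate numbers, but same-numbered libraries did not deviate together over all tested genes (r of -0.08 to 0.00 over 5 pairs). The main fit therefore did not pair them, although a small shared effect might not show in this r. With the block limma called 145 genes higher and 190 lower.

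Signs of uncalled genes near 0 turned. Under TMM, median-of-ratios, edgeR and DESeq2, in that order, the log2 fold change was 0.21, 0.19, 0.15 and 0.14 for pck2, 0.20, 0.19, 0.23 and 0.22 for dld, 0.13, 0.11, 0.13 and 0.12 for mdh2, 0.095, 0.078, 0.090 and 0.081 for mpc2, 0.11, 0.096, 0.021 and 0.018 for nek7, 0.16, 0.14, 0.11 and 0.096 for pgm2, 0.073, 0.057, 0.061 and 0.055 for srek1, 0.069, 0.053, 0.018 and 0.0079 for slc37a4 and 0.13, 0.11, 0.12 and 0.11 for tkfc. With edgeR and DESeq2 it was 0.39 and 0.37 for slc2a2 and 0.089 and 0.080 for cebpa. It was 0.0033 for mpc1 under TMM. Without WT3 and KO2 it was 0.49 for pck2, 0.00064 for dld and 0.052 for pgm2. Leaving out 1 library gave ranges of -0.11 to 0.26 for pck2, -0.79 to 0.056 for slc2a2, -0.11 to 0.088 for dld, -0.038 to 0.16 for galk1, -0.23 to 0.27 for gcgr, -0.35 to 0.11 for nek7, -0.23 to 0.095 for pgm2, -0.16 to 0.094 for tkfc and -0.43 to 0.024 for wtip. The median log2 fold change of all tested genes was -0.191 in the main fit and -0.0099 under TMM. It was -0.025 under median-of-ratios scaling, -0.0166 with edgeR and -0.0246 with DESeq2. The cause of the turns was not tested. Among members, slc2a2 had the fewest reads, 25 in KO1.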
